A study of Rattus norvegicus with 12 samples.

Results

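Neural stem cells from the brain and from the spinal cord of Sprague Dawley rats were compared in how their gene expression changed on differentiation. The measure is a difference of responses. The response of a tissue is the mean log2 signal of its differentiated cultures minus that of its proliferative cultures, and the difference is the spinal cord response minus the brain response. All 12 arrays of the series enter it, in 4 groups of 3: proliferative brain, differentiated brain, proliferative spinal cord and differentiated spinal cord cells. Every group came from animals at postnatal day 3 to 5, without a genetic change or an agent named in the labels. The labels mark the differentiated groups by name alone, and the medium, the length of differentiation and the number of animals are not given in the sources used here. Of 14217 genes represented on the array, 11218 passed a filter on low signal and were tested, and the difference was called for 5036 of them (44.9%).

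Neural stem cells divide in culture under mitogens, and on withdrawal of mitogens or addition of serum they give rise to astrocytes, oligodendrocytes and neurons. Oligodendrocytes arise through a precursor that carries NG2 (Cspg4) and the transcription factor Sox10, and they make myelin once mature. Cells of the brain and of the spinal cord keep different positional programmes, and cultures from young animals can also carry meningeal, vascular and immune cells.

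Each value is the signal of a probe set, a group of short probes for 1 transcript, on a 3' expression array. Arrays of 1 group correlated with each other at 0.940 to 0.975 over probe sets, against 0.735 to 0.880 between groups. Array medians lay between 6.87 and 7.22. The log2 ratios of 3' to 5' control probes were -0.13 to 0.13 for Gapdh. For beta-actin they were 0.99 to 1.01 on differentiated and 0.69 to 0.99 on proliferative spinal cord arrays, and 0.73 to 0.84 on brain arrays. Whether this bears on the responses was not tested. Array 1 of the proliferative spinal cord cells stood apart from the other 2 of its group and had the lowest weight when arrays were weighted by their agreement (0.27, against 0.44 to 2.28 on the others). Nothing in the labels says that the 3 arrays of a group are separate cultures or animals, so p-values measure the spread between these arrays only, which may be technical. The stem cell factor Sox2 was well above background in every group, at mean log2 signals of 12.62, 13.24, 12.81 and 11.63 in the order proliferative brain, differentiated brain, proliferative cord and differentiated cord. In bulk RNA, fewer cells of a type and less RNA per cell cannot be told apart. A group is called dim for a gene where all 3 arrays lie under their own 40th percentile (5.91 to 6.41). It was then set at the mean of those percentiles, and a fold against it is a lower bound, written "at least".

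Differentiation raised 2702 genes (24.1%) and lowered 3193 (28.5%) in brain cells, 52.5% in either direction. It raised 2341 (20.9%) and lowered 2540 (22.6%) in spinal cord cells, 43.5% in either direction, by limma's moderated test with Benjamini-Hochberg adjustment. The response was higher in the spinal cord for 2654 genes (23.7%) and lower for 2382 (21.2%). Over the 20834 probe sets, 40.5% were called in the difference, 3916 higher (18.8%) and 4518 lower (21.7%), against 46.9% in the brain response and 40.3% in the spinal cord response. Of all calls over probe sets 46.4% were higher as deposited and 61.3% after each array was centred on its median, a change that moves the median difference of all genes from 0.05 to 0.29 (log2).

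Genes raised in both tissues numbered 815, which is 30.2% of those raised in brain and 34.8% of those raised in spinal cord. Of all genes, 20.9% rose in spinal cord and 24.1% in brain. Genes lowered in both numbered 931, or 29.2% of those lowered in brain and 36.7% of those lowered in spinal cord. Of all genes, 22.6% fell in spinal cord and 28.5% in brain. Opposite responses were fewer, with 612 genes (5.46%) up in brain and down in spinal cord and 495 (4.41%) down in brain and up in spinal cord. Of genes raised in brain 22.6% fell in spinal cord, as did 22.6% of all genes. Of genes lowered in brain 15.5% rose in spinal cord, against 20.9% of all genes. Both opposite classes are thus near the share of all genes or under it. Which of these 2 classes is larger depends on scaling, since they held 412 and 635 genes after each array was centred on its median, and 601 and 496 after quantile normalization. The median difference was -2.24 in the class up in brain and 1.35 in the class down in brain. Over the 11218 genes the brain and spinal cord responses correlated at r = 0.164 (Pearson) and 0.151 (Spearman). This is a correlation across genes, which are not independent replicates, and the 2 responses share no arrays.

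**Figure D1:**
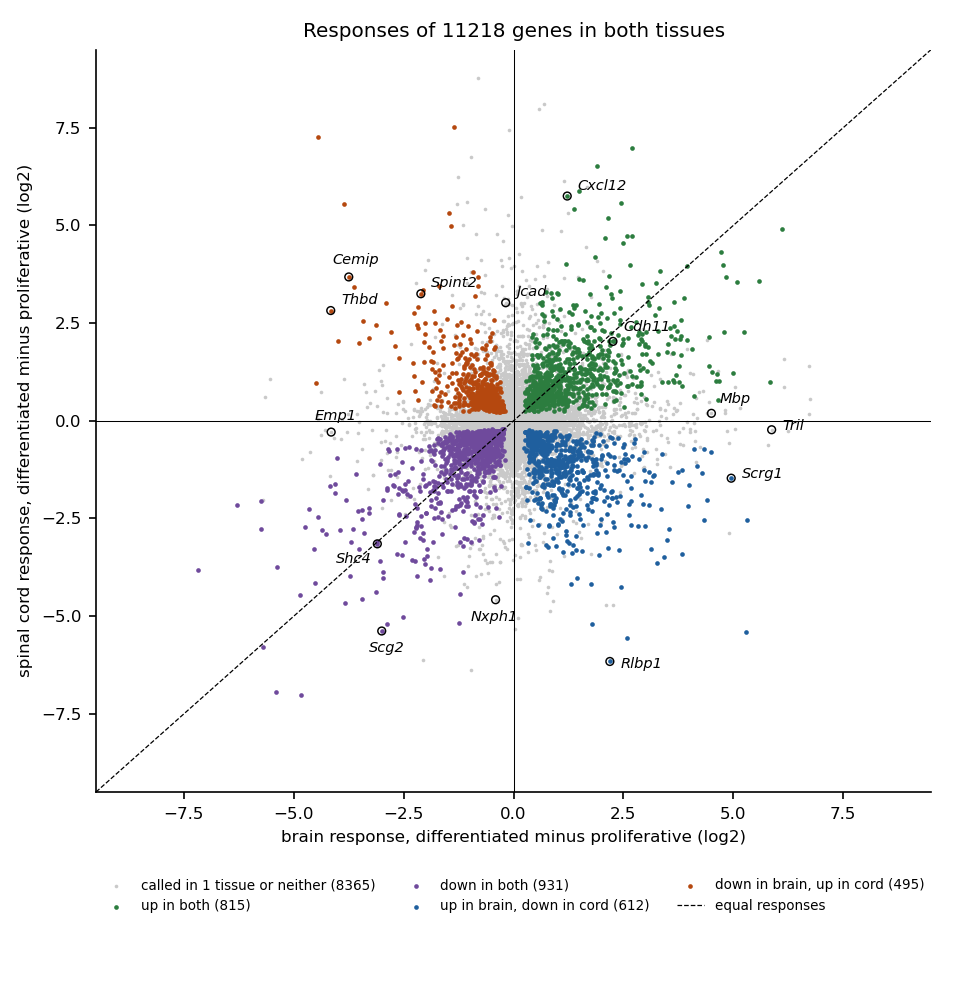
The brain response (x axis, log2) and the spinal cord response (y axis, log2) of 11218 genes, each a point. Colours mark genes called in both tissues and grey those called in 1 tissue or neither; the dashed line marks equal responses. The 612 genes up in brain and down in spinal cord have a median difference of -2.24, and the 495 with the opposite pattern one of 1.35.

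A shared direction did not always mean a shared size. Of the 815 genes up in both tissues, 147 rose more in brain, 110 rose more in spinal cord and 558 had no call in the difference. For 356 of those 558 genes the 95% confidence interval of the difference lay within -1 to 1 (log2), which bounds the difference to less than 2-fold. Of the 931 genes down in both, 172 fell more in brain, 100 fell more in spinal cord, and 506 of the 659 with no call had an interval within those bounds. Calls in 1 tissue were also divided. Of 1275 genes up in brain with no call in spinal cord, the difference itself was called for 844. Of 1767 genes down in brain only it was called for 1132, of 1031 up in spinal cord only for 671, and of 997 down in spinal cord only for 620. The remaining genes of these classes are not shown to respond differently.

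Levels before and after differentiation describe these classes further. Genes up in brain and down in spinal cord started at a median of 0.90 higher in spinal cord and ended 1.19 lower there, so that the order of the tissues turned. Genes down in brain and up in spinal cord started with a median gap of -0.46 (spinal cord minus brain, log2) and ended with one of 0.77. For genes lowered in brain only, with the difference called, the gap between tissues became smaller in 779 of 1132 (68.8%). For those raised in brain only it became smaller in 467 of 844 (55.3%). For genes raised in spinal cord only it became larger in 479 of 671 (71.4%), and for those lowered in spinal cord only in 446 of 620 (71.9%). Over all genes the median size of the gap was 0.39 both before and after differentiation, and the gap became smaller in 49.1% and larger in 50.9%. These gaps are made of the same arrays as the responses and are given as levels, without a test. The change in a gap is the difference of responses itself, by which these classes were chosen.

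Among genes up in brain and down in spinal cord, Rlbp1, a retinaldehyde-binding protein also made by glia, was among the genes with a large difference. Its log2 signals were 8.86, 9.26 and 9.04 in proliferative and 11.07, 11.32 and 11.34 in differentiated brain cells, against 11.08, 12.02 and 12.25 in proliferative and 5.62, 6.41 and 4.86 in differentiated spinal cord cells. The groups did not overlap within either tissue. Rlbp1 rose 4.56-fold in brain and fell 71.3-fold in spinal cord, a difference of -8.34 ± 0.47 (SE; limma adjusted p = 3.0e-08). On 2 of the 3 differentiated spinal cord arrays Rlbp1 lay under the 40th percentile, so these folds rest on values near background, and the difference was -7.71 with low values set to the floor. Scrg1, a small secreted protein of glia, read 7.34, 7.40 and 7.90 in proliferative and 12.63, 12.42 and 12.44 in differentiated brain cells. In spinal cord cells it read 11.91, 12.42 and 12.64 before and 10.87, 10.93 and 10.76 after. Proliferative spinal cord cells thus lay at the level that brain cells reached on differentiation. It rose 30.9-fold in brain and fell 2.77-fold in spinal cord (difference -6.42 ± 0.25, adjusted p = 1.8e-09). Pmel, a melanosome matrix protein, B3gat2, which makes the HNK-1 carbohydrate of neural adhesion molecules, and B3galt5, a galactosyltransferase, were dim in proliferative brain cells. Their differences were at least 106-fold, 71.2-fold and 51.2-fold, each lower in spinal cord. Fbxo2, a ubiquitin ligase subunit of the nervous system, had a difference of -6.87 ± 1.27, and its spinal cord fall (adjusted p = 0.0377) rested on single arrays. It was lost without array 3 of the differentiated spinal cord cells (adjusted p = 0.173) or without any of 4 other arrays (0.0502 to 0.0939). The difference was -5.75 without that array and -5.73 without array 2 of the proliferative brain cells.

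Among genes down in brain and up in spinal cord, Thbd, thrombomodulin, a surface anticoagulant of endothelium and other cells, had the largest difference in fold, as a lower bound. It read 9.62, 9.63 and 10.39 in proliferative and 5.48, 5.89 and 5.80 in differentiated brain cells. It read 9.22, 10.31 and 9.43 in proliferative and 12.57, 12.40 and 12.43 in differentiated spinal cord cells. The proliferative groups overlapped and the differentiated groups stood far apart. Thbd fell at least 12-fold in brain and rose 7.04-fold in spinal cord, a difference of at least 84.3-fold (adjusted p = 1.7e-08). Of its 2 other tested probe sets, 1 gave a difference of at least 16.9-fold and the other was dim in all groups except differentiated spinal cord cells, which leaves its size unknown. Cemip, a hyaluronan-degrading protein, read 8.49, 9.48 and 8.20 and then 5.92, 4.68 and 4.34 in brain cells, and 7.47, 8.99 and 8.73 and then 12.08, 12.09 and 12.05 in spinal cord cells. The starting levels again overlapped, and the difference was at least 68.8-fold. Spint2, an inhibitor of membrane serine proteases, fell 4.32-fold in brain, from 8.85, 8.05 and 9.44 to 6.07, 6.91 and 7.02. It rose 9.49-fold in spinal cord, from 7.68, 8.05 and 7.84 to 11.22, 11.24 and 10.84 (difference 5.36 ± 0.44, adjusted p = 6.6e-07).

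The other 3 genes of this kind were less firm. Foxp2, a forkhead transcription factor, was dim in differentiated brain and proliferative spinal cord cells and differed at least 35.3-fold. Its log2 difference of 9.41 was 8.70 without array 2 of the differentiated brain cells. Fxyd5, a modulator of the sodium pump, fell 22.5-fold in brain. Its 1.96-fold rise in spinal cord (adjusted p = 0.0281) was lost without any of 5 of the 6 spinal cord arrays (0.0589 to 0.0954), which leaves a fall in brain and a difference of 5.46 ± 0.46. Cxcl3, a neutrophil chemokine, had a difference of 5.06, which was 4.28 without array 1 and 5.67 without array 2 of the proliferative spinal cord cells. Of its 3 other tested probe sets, 2 had both responses and the difference called, and 1 was dim in 3 groups with no call in brain.

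Among genes raised in both tissues whose interval of the difference lay within -1 to 1, those with the largest smaller response were chosen. Dock6 rose 3.91-fold in brain and 3.76-fold in spinal cord, with a difference of -0.06 (95% confidence interval -0.60 to 0.48). Cdh11, a cadherin of mesenchymal and glial cells, rose 4.79-fold in brain, from 9.63, 9.79 and 10.08 to 12.01, 12.12 and 12.14. In spinal cord it rose 4.07-fold, from 10.79, 11.61 and 11.34 to 13.34, 13.13 and 13.35. Zfp423, a zinc finger transcription factor, rose 6.06-fold and 4.39-fold, Lhfpl6, a membrane protein, 5.67-fold and 4.27-fold, and Col4a5, a basement membrane collagen chain, 4.60-fold and 3.86-fold. The difference of Cdh11, Zfp423, Lhfpl6 and Col4a5 was not called with all arrays at equal weight and was called without 1 array. It became -0.46 for Cdh11 and -0.64 for Zfp423 without array 1 and -0.54 for Col4a5 without array 3 of the proliferative spinal cord cells, and -0.56 for Lhfpl6 without array 1 of the proliferative brain cells. With array weights it was called for Cdh11 (-0.50) and Zfp423 (-0.61). Of 3 other tested probe sets of Zfp423, 1 was called up in brain and 0 in spinal cord. Cyp7b1, an oxysterol hydroxylase, rose 5.38-fold in brain and at least 6.52-fold in spinal cord. Its difference had an adjusted p of 0.163 and was called under median centring and under quantile normalization.

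Genes lowered in both tissues were chosen in the same way. Shc4, an adaptor of receptor tyrosine kinases, read 12.13, 12.48 and 12.34 and then 9.10, 9.32 and 9.23 in brain cells, and 11.29, 11.25 and 11.31 and then 8.21, 8.14 and 8.05 in spinal cord cells. It fell 8.55-fold in brain and 8.89-fold in spinal cord, and the difference was -0.06 (interval -0.38 to 0.27). The tissues kept their distance while both levels dropped. Nptxr, the receptor of neuronal pentraxins, fell 8.56-fold and 8.51-fold (interval of the difference -0.72 to 0.73). Cnr1, the cannabinoid receptor CB1, fell 4.33-fold and 5.42-fold; its other tested probe set was called in spinal cord only. Spry4, a feedback inhibitor of growth factor signalling, fell 3.70-fold and 4.58-fold, and Kiaa0040 fell 3.76-fold and 3.52-fold. Il1rap, a co-receptor of interleukin 1, fell 4.83-fold and 7.23-fold. Its difference of -0.58 (adjusted p = 0.0252) was lost without any of 5 arrays (0.0502 to 0.0595), namely arrays 1 and 3 of the proliferative and 3 of the differentiated brain cells, and array 2 of the proliferative and 3 of the differentiated spinal cord cells. After median centring it was -0.35 (adjusted p = 0.198). The other tested probe set of Il1rap had no call in brain.

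**Figure D2:**
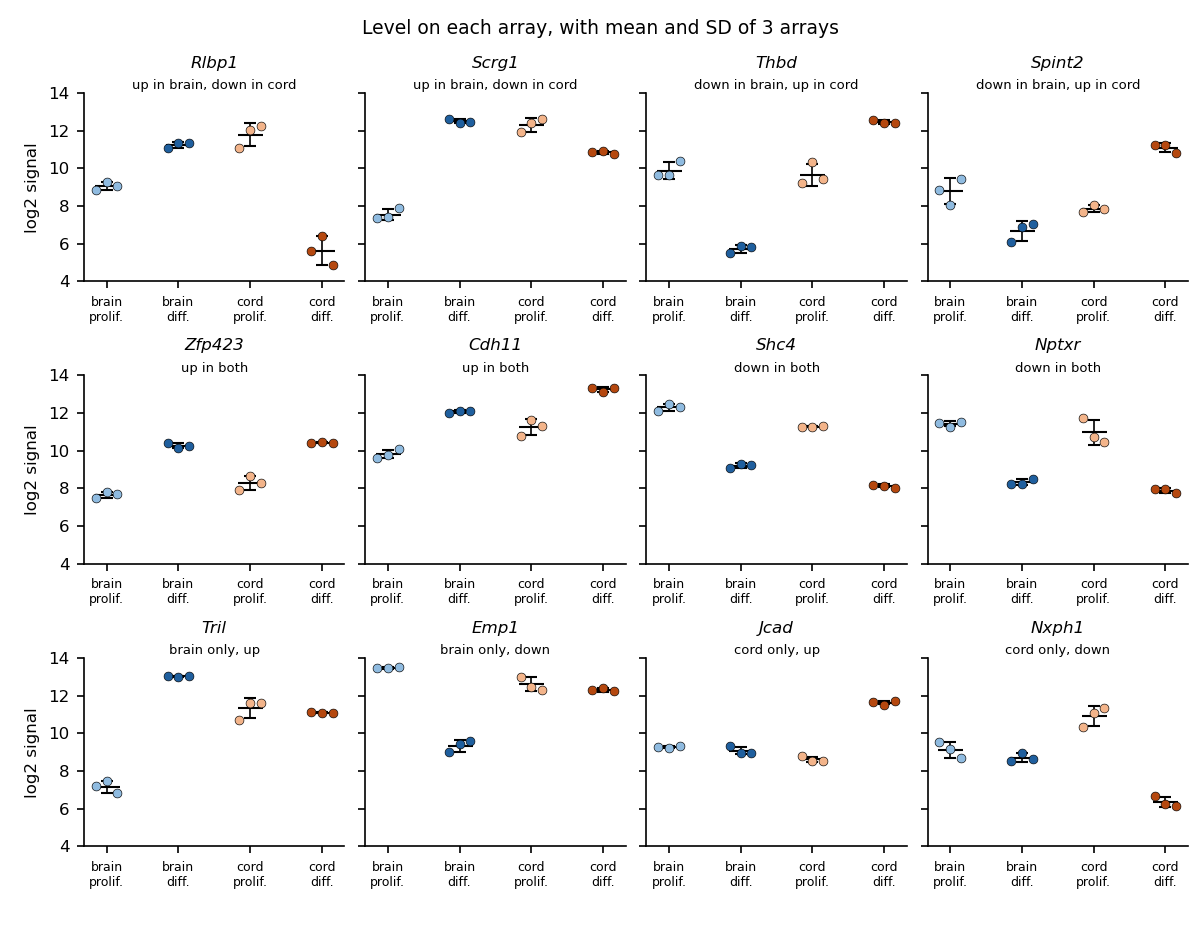
Log2 signal of 12 genes on each of the 12 arrays (points), with the mean and SD of each group of 3. In the first row the brain and cord groups move in opposite directions, in the second in the same direction, and in the third in 1 tissue; proliferative cord cells sit near the differentiated brain level for Scrg1.

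Several genes moved in brain cells alone. Mag, the myelin-associated glycoprotein, read 6.83, 7.75 and 6.16 and then 11.98, 11.67 and 11.68 in brain cells, and 11.93, 11.48 and 11.70 and then 11.50, 11.44 and 11.42 in spinal cord cells. Mag was thus high from the start in spinal cord cells and rose 29-fold in brain cells. Its difference was -5.11 ± 0.39 (adjusted p = 4.0e-07). Zfp488, an oligodendrocyte transcriptional regulator, rose 17.3-fold in brain with a spinal cord change of -0.26 (interval -0.80 to 0.29). Tril, a modulator of Toll-like receptors in glia, rose 58.4-fold in brain with a difference of -6.10. Its spinal cord change of -0.23 had no call with all arrays and was called at -0.53 without array 1 of the proliferative spinal cord cells. Emp1, a membrane protein of proliferating epithelia, fell 17.8-fold in brain, from 13.47, 13.45 and 13.54 to 8.99, 9.42 and 9.60. In spinal cord it stayed between 12.23 and 13.01 (difference 3.86 ± 0.24). Spon2, a secreted matrix protein, fell 11.5-fold in brain and changed by -0.03 in spinal cord (interval -0.42 to 0.37).

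Other genes moved in spinal cord cells alone. Ajuba, a LIM protein of cell junctions, read 8.62, 8.20 and 8.30 and then 8.44, 8.42 and 8.65 in brain cells, and it rose in spinal cord cells from 6.68, 6.41 and 6.43 to 9.97, 9.99 and 9.94. The rise was 11-fold and the difference 3.33 ± 0.21 (adjusted p = 6.7e-08). Adgra2 (GPR124), an adhesion receptor of brain vessels, rose 9.48-fold and Jcad, a junction protein, 8.09-fold in spinal cord. Nxph1, a neurexin ligand, fell 23.9-fold in spinal cord, from 10.35, 11.09 and 11.35 to 6.65, 6.26 and 6.14, with a brain change of -0.41 (interval -0.98 to 0.15). Rnf180, a ubiquitin ligase, and Car2, carbonic anhydrase II of oligodendrocytes and other cells, each fell 16.5-fold in spinal cord, with brain changes of 0.15 and 0.07.

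Lists of genes for cell types and pathways were set against these shares of all genes, 23.7% higher and 21.2% lower. Lists are described by counts and by the median of their tested members, and were not tested as sets. The medians over all genes were -0.06 for the brain response, -0.04 for the spinal cord response and 0.05 for the difference.

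Of all the lists, that of oligodendrocyte precursors had the largest median difference. Of 14 precursor genes tested, 13 had a lower response in spinal cord and 9 rose in brain while falling in spinal cord, with a median brain response of 2.31, spinal cord response of -1.88 and difference of -4.67. The exception was Pdgfra, the receptor of platelet-derived growth factor, whose difference of 0.06 was not called with all arrays and was called at 0.37 without array 1 of the proliferative brain cells. Cspg4, the NG2 proteoglycan, read 6.37, 5.81 and 6.46 and then 8.18, 8.04 and 8.25 in brain cells, and 9.51, 10.14 and 10.03 and then 6.21, 6.67 and 6.49 in spinal cord cells. It rose 3.84-fold in brain and fell 10.8-fold in spinal cord, a 41.6-fold difference (adjusted p = 3.7e-08). Sox10, which drives the oligodendrocyte programme, rose 14.2-fold in brain and fell 2.39-fold in spinal cord. The differences were 49.4-fold for C1ql1, a secreted complement-like protein, 33.1-fold for the transcription factor Nkx2-2 and 33.7-fold for Lhfpl3, all lower in spinal cord.

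Mature oligodendrocyte genes had another pattern. Of 19 tested, 17 rose in brain and 17 had a lower response in spinal cord, but only 5 fell in spinal cord and 2 rose there. Their median response was 3.52 in brain and -0.25 in spinal cord. The mean level of the list on single arrays was 6.13 to 7.26 in proliferative and 9.86 to 10.01 in differentiated brain cells, and 10.39 to 10.74 and 10.35 to 10.38 in spinal cord cells. Spinal cord cells thus had these genes at a high level in both states. Myrf, the transcription factor of myelin genes, rose 16.1-fold in brain with a spinal cord change of -0.20 (interval -0.77 to 0.38). Gal3st1, which makes the myelin lipid sulfatide, rose 8.44-fold in brain and fell 2.47-fold in spinal cord. The 2 that rose in both tissues were Enpp2 (autotaxin), 14-fold and 3.23-fold, and Tspan2, a tetraspanin of myelin, 11.5-fold and 1.97-fold.

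Of 22 astrocyte genes, 20 rose in brain. In spinal cord 10 rose, 9 of them in both tissues, and 6 fell, all of which rose in brain. The median response was 2.30 in brain and 0.49 in spinal cord. The response was lower in spinal cord for 13 and higher for Gja1 and Chi3l1. Gfap, the intermediate filament of astrocytes, read 12.02, 11.35 and 12.11 and then 14.36, 14.20 and 14.36 in brain cells, and 11.78, 13.28 and 13.34 and then 11.32, 11.34 and 11.52 in spinal cord cells. It rose 5.58-fold in brain and fell 2.64-fold in spinal cord. S100b, a calcium-binding protein of astrocytes and oligodendrocyte lineage cells, Aldoc, a brain aldolase, and Atp1b2, a sodium pump subunit, also rose in brain and fell in spinal cord, with differences of 24.2-fold, 14.3-fold and 14.1-fold. Aqp4, the water channel of astrocyte endfeet, rose in both, 27.7-fold and 4.82-fold.

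Of 17 stem and progenitor genes tested, 8 rose and 5 fell in brain, and 3 rose and 10 fell in spinal cord. Only 4 rose in brain and fell in spinal cord, while 4 fell in both and 2 rose in both. The response was lower in spinal cord for 7 and higher for Cd24. Sox2 rose 1.54-fold in brain and fell 2.27-fold in spinal cord (difference -1.80 ± 0.11, adjusted p = 5.1e-08); 1 of its 2 other tested probe sets had the spinal cord fall and the difference called but not the brain rise. Sox3 rose 1.90-fold and fell 2.96-fold. Pax6, a regulator of dorsal and forebrain progenitors, fell 1.83-fold in spinal cord with a brain change of -0.01 (interval -0.32 to 0.30). Egfr, the receptor of epidermal growth factor, rose in both, 2.14-fold and 2.48-fold.

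Most neuronal genes fell. Of 28 tested, 18 fell in brain and 17 in spinal cord, 11 in both, and the response was lower in spinal cord for 13 and higher for 5 (3 without array 1 of the proliferative brain cells). The medians were -1.26 and -1.89. Scg2, a granin of secretory vesicles, fell 8.0-fold in brain and 41.6-fold in spinal cord, and Npy, neuropeptide Y, 3.77-fold and 17-fold. Sox11, a factor of immature neurons, read 11.25, 11.16 and 10.94 and then 9.74, 9.96 and 9.90 in brain cells, and 11.03, 11.51 and 11.73 and then 5.91, 6.45 and 6.38 in spinal cord cells. The tissues started alike and ended 15.2-fold apart in response (adjusted p = 9.4e-08). Map2, a dendritic microtubule protein, and Gap43, a growth cone protein, rose 1.71-fold and 1.25-fold in brain and fell 3.85-fold and 8.76-fold in spinal cord. The brain rise of Gap43 was lost without array 3 of the proliferative (adjusted p = 0.0514) or array 2 of the differentiated brain cells (0.0517). Elavl4, a neuronal RNA-binding protein, fell 12.3-fold in spinal cord with a brain change of -0.30 (interval -0.73 to 0.13).

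**Figure D3:**
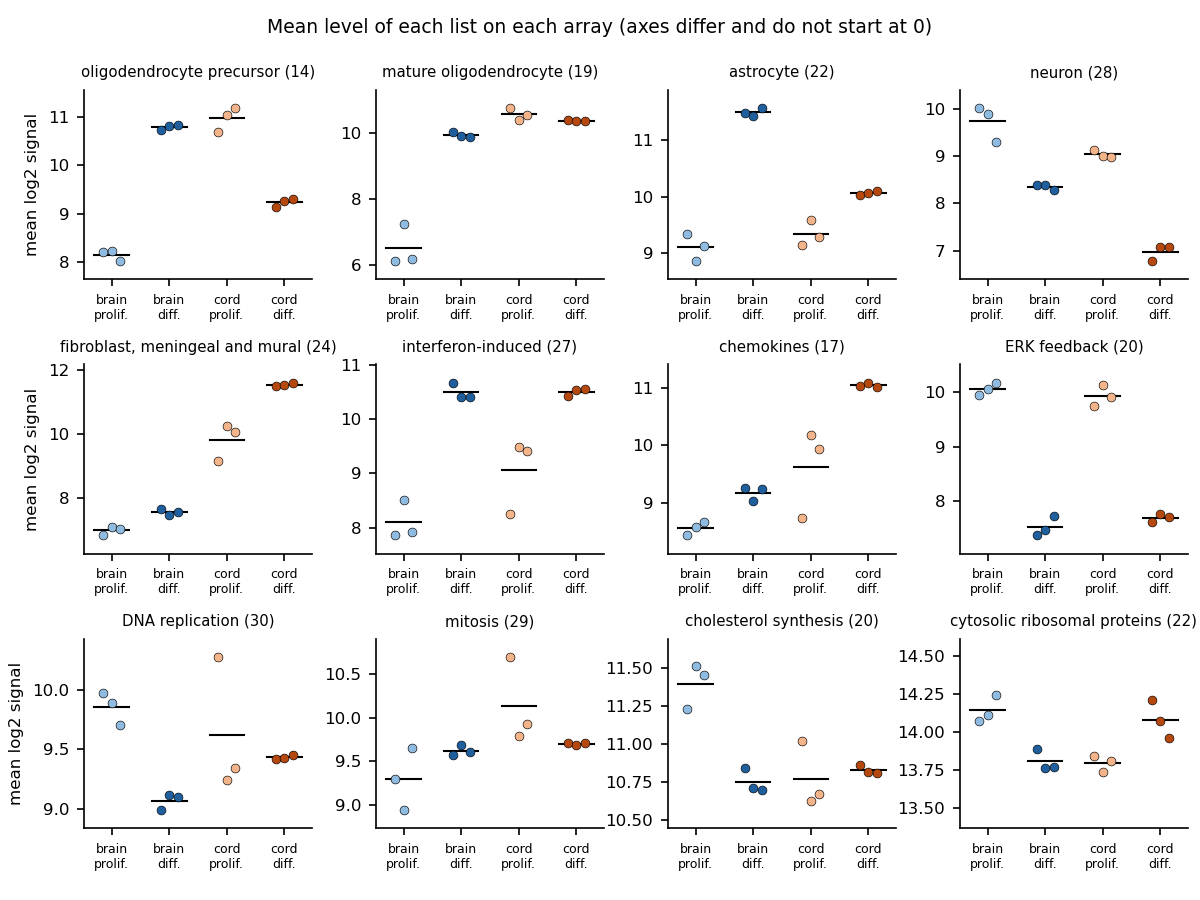
Mean log2 signal of the tested members of 12 gene lists on each of the 12 arrays (points), with the mean of each group as a line; axes differ between panels and do not start at 0. Mature oligodendrocyte genes sit at 10.35 to 10.74 on all cord arrays and rise in brain. Array 1 of the proliferative cord group stands apart in the fibroblast, interferon, chemokine, DNA replication, mitosis and cholesterol synthesis panels.

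Markers of other cell types moved with these groups, and their part in the results was not tested. Of 24 fibroblast, meningeal and mural genes, 11 had a higher response in spinal cord and 2, Cspg4 and Thy1, a lower one. The list's mean level was 6.85 to 7.12 in proliferative and 7.48 to 7.67 in differentiated brain cells, and 9.16 to 10.26 and 11.50 to 11.61 in spinal cord cells. Among its defining genes, Dcn was dim in differentiated brain cells and Ogn in both brain groups. Of 14 microglial genes, 9 had a lower response in spinal cord and 0 a higher one. Their mean level was 5.58 to 6.25 and 6.84 to 7.12 in brain cells and 8.50 to 9.54 and 8.04 to 8.26 in spinal cord cells, with Aif1, a defining gene of microglia, dim in proliferative brain cells. Cx3cr1, Itgam, Trem2, Cd163 and P2ry12, also on this list, did not pass the filter on low signal and do not enter these values. Of 11 Schwann cell genes, which include Sox10 and S100b of the glial lists, 7 had a lower response in spinal cord, and their mean level ran from 7.74 on a differentiated spinal cord array to 9.59 on a proliferative one. Of 7 endothelial genes 2 had a higher response in spinal cord, and of 7 ependymal genes 2 had a lower one, in each case near the share of all genes.

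Collagen genes often had higher responses in spinal cord. Of 32 collagen and collagen assembly genes, 22 rose in spinal cord and 13 in brain, 11 in both, and the response was higher in spinal cord for 15 and lower for Col5a3, Col16a1 and Bmp1 (5 lower without array 1 of the proliferative spinal cord cells). The median difference was 1.04, and ran from 0.63 to 1.28 when 1 array was left out. Col6a1, a chain of the microfibrillar collagen VI, read 10.32, 10.53 and 10.70 and then 7.61, 7.74 and 7.55 in brain cells, and 10.54, 10.93 and 10.54 and then 10.93, 10.90 and 10.77 in spinal cord cells. It was shared at the start and fell 7.36-fold in brain only (difference 3.08 ± 0.18, adjusted p = 4.6e-08). Col6a2, a partner chain, fell 3.41-fold in brain and rose 2.11-fold in spinal cord; its other tested probe set, dim in differentiated brain cells, had the brain fall and the difference called and a spinal cord change of 0.02 that was not. Lox, which cross-links collagen, lay near background in brain cells, at 4.87 to 6.05 over both groups, and rose 14.3-fold in spinal cord. P4ha2, a prolyl hydroxylase of collagen, fell 2.50-fold in brain and rose 4.45-fold in spinal cord; its second tested probe set, dim in 3 groups, was called up in spinal cord but not in brain or in the difference. Fbln1, a basement membrane protein, rose 9.56-fold in spinal cord with a brain change of 0.33 (interval -0.12 to 0.77). Sparc, a collagen-binding matrix protein, rose evenly, 3.30-fold and 3.39-fold.

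Crabp2, a retinoic acid carrier, fell 3.82-fold in brain and rose 3.68-fold in spinal cord (difference 3.81 ± 0.27). Of 16 targets of transforming growth factor (TGF) beta 6 had a higher response in spinal cord and 1 a lower one, Tgfb2, whose other tested probe set had a difference of 0.11 and no call (3 lower without array 1 of the proliferative spinal cord cells). Thbs2, a matrix thrombospondin, rose 3.48-fold in spinal cord with a brain change of 0.22. Of 16 contractile genes 7 had a higher response in spinal cord and 1 a lower one. Myl9, a myosin light chain, rose 2.11-fold in brain and 5.38-fold in spinal cord. Acta2, smooth muscle actin, had no call in either tissue (difference -0.24, interval -1.46 to 0.98).

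Genes for the matrix of the central nervous system mostly had lower responses in spinal cord. Of 10 genes for lecticans, tenascins and their links, 7 had a lower response in spinal cord and 1 a higher one. Bcan, brevican, rose 22.4-fold in brain and fell 1.73-fold in spinal cord, a 38.9-fold difference (adjusted p = 6.1e-10). Ncan, neurocan, rose 2.50-fold and fell 2.61-fold. Tnr, tenascin-R, was dim in proliferative brain cells and rose at least 24.1-fold there, with a spinal cord change of 0.32 (interval -0.26 to 0.89). Of 19 cadherins and neural adhesion molecules, 12 had a lower response in spinal cord and 4 a higher one. Of the 12, 9 rose in brain and fell in spinal cord. These included Cdh10, a type II cadherin (27.8-fold), the protocadherin Pcdh17 (16.4-fold) and Cntn1, contactin 1 (14-fold). Cdh2, N-cadherin, fell 2.77-fold in spinal cord with a brain change of 0.17 (interval -0.07 to 0.41). Its other tested probe set was called up in brain (0.58) as well as down in spinal cord. Cdh1, E-cadherin, was dim in every group except differentiated spinal cord cells, where it read 10.38, 10.29 and 10.56, a rise of at least 16.6-fold.

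Adamts1, a secreted protease that cuts lecticans, fell 7.27-fold in brain and 1.65-fold in spinal cord, while Mmp15, a membrane-bound metalloproteinase, fell 8.92-fold in spinal cord with a brain change of 0.17. Of 20 metalloproteinases and inhibitors 8 had a higher and 5 a lower response in spinal cord, and the sign of their median difference turned from 0.52 to -0.14 when low values were set to the floor and to -0.09 with array weights. Of 17 cathepsins and lysosomal genes 12 rose in brain and 7 in spinal cord, and 9 had a lower response in spinal cord and 2 a higher one. Psap, the saposin precursor, rose 2.01-fold in brain with a spinal cord change of -0.09, whereas Ctsh, cathepsin H, rose in both, 2.82-fold and 3.41-fold.

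Interferon-induced genes showed a shared direction. Of 27 tested, 26 rose in brain, 23 in spinal cord and 22 in both, against 7.27% of all genes raised in both. Promoter stretches of 3 of them are given here because their response was shared and each holds an interferon-stimulated response element, the DNA site read by interferon-activated factors. The stretches, from RefSeq on assembly GRCr8, are Ifi44l at chr2:243328619-243328718 (plus strand), Irf7 at chr1:205800038-205800137 (minus strand) and Rsad2 at chr6:48788213-48788312 (minus strand). Each is written 5′ to 3′ along its gene, with matches in capitals to GAAA, 2 bases of any kind and GAAA, or to the reverse complement, TTTC, 2 bases of any kind and TTTC.
Ifi44l: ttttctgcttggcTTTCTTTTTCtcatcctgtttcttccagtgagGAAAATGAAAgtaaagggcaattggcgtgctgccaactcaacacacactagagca
Irf7: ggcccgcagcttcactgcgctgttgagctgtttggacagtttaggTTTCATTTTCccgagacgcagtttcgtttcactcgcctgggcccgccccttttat
Rsad2: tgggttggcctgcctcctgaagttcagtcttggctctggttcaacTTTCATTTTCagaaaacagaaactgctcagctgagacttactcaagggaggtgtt
Within 250 bases before the start, 14 of the 21 list genes with a promoter entry held such a match on either strand (66.7%), as did 992 of all 27457 genes in the table (3.61%) and 265 of the 9376 tested genes with an entry (2.83%). A match is a description of these letters, not a measured site.

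The size of the interferon response was less even than its direction. The median was 2.32 in brain and 1.52 in spinal cord, and 10 genes had a lower response in spinal cord and 2, Irf1 and Gbp2, a higher one. The count of 10 was unstable. It was 21 without array 1 of the proliferative spinal cord cells, 17 without array 2 of the proliferative brain cells, 6 without array 1 of the differentiated brain cells, and 5 without array 1 of the proliferative brain cells or without array 2 or 3 of the proliferative spinal cord cells. Ifit2, which binds foreign RNA, read 6.15, 6.31 and 5.99 and then 10.86, 10.61 and 10.34 in brain cells, and 8.36, 9.46 and 9.52 and then 10.45, 10.41 and 10.64 in spinal cord cells. The end levels were similar and the start was higher in spinal cord, so the rise was 21.9-fold against 2.61-fold (difference -3.07 ± 0.35, adjusted p = 1.5e-05). Ifi44l, an interferon-induced inhibitor, rose 9.77-fold and 4.90-fold, and Irf7, the factor that amplifies interferon production, 5.66-fold and 3.96-fold. Their differences of -1.0 and -0.52 were not called with all arrays at equal weight and were called at -1.30 and -1.08 without array 1 of the proliferative spinal cord cells (Ifi44l also at -1.28 without array 2 of the proliferative brain cells and at -1.18 with array weights). Rsad2, viperin, rose 15.5-fold and 4.19-fold. Its difference of -1.88 was -2.50 and its spinal cord response of 2.07 was 1.45 without array 1 of the proliferative spinal cord cells.

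Of 11 antigen presentation genes tested, 9 rose in spinal cord and 7 in brain, and 5 had a higher response in spinal cord and 0 a lower one (2 lower without array 1 of the proliferative spinal cord cells). Psme1, a proteasome activator subunit, rose 2.53-fold in spinal cord with a brain change of -0.07 (interval -0.31 to 0.17). Tapbp, tapasin, which loads peptide onto class I molecules, rose 2.18-fold in spinal cord with a brain change of -0.05. Erap1, which trims peptides, rose 1.44-fold in brain and 3.20-fold in spinal cord. The immunoproteasome subunits Psmb8 and Psmb9 rose in both, 3.58-fold and 5.03-fold, and 3.27-fold and 3.61-fold. In the acute phase and complement list of 16 genes, 7 had a higher response in spinal cord and 3 a lower one (7 lower without array 1 of the proliferative spinal cord cells). Lcn2, lipocalin 2, rose 3.64-fold in spinal cord with a brain change of 0.36, while A2m, the protease inhibitor alpha-2-macroglobulin, rose 24.7-fold in brain and 2.28-fold in spinal cord.

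Chemokines, the secreted attractants of immune cells, had a higher response in spinal cord in 8 of 17 cases and a lower one in 3, Cxcl9, Cxcl13 and Cxcl14 (5 lower without array 1 of the proliferative spinal cord cells, and 1 with low values set to the floor or with a pseudocount). Cxcl12, the ligand of CXCR4, read 8.09, 7.64 and 7.40 and then 8.78, 8.98 and 9.03 in brain cells, and 6.52, 8.23 and 8.17 and then 13.57, 13.42 and 13.19 in spinal cord cells. It rose 2.33-fold in brain and 54.0-fold in spinal cord (difference 4.53 ± 0.49, adjusted p = 8.2e-06), and a second probe set gave 5.08. The third was dim in both proliferative groups, which leaves its size unknown. Cxcl1, a ligand of CXCR2, fell 2.09-fold in brain and rose 2.88-fold in spinal cord, and Cx3cl1, fractalkine, fell 2.12-fold and rose 2.75-fold.

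Promoter stretches of 3 chemokines are shown because they hold a like motif in genes whose responses differed in direction: Cxcl1 was opposite between tissues, Cxcl2 fell in both and Cxcl11 rose in both. They come from RefSeq on GRCr8, Cxcl1 at chr14:17479350-17479449 (minus strand), Cxcl2 at chr14:17467274-17467373 (minus strand) and Cxcl11 at chr14:15973609-15973708 (plus strand). Capitals mark matches to GGGAAA, 2 bases of any kind and CC, a form of the NF-kappaB site, or to the reverse complement, GG, 2 bases of any kind and TTTCCC.
Cxcl1: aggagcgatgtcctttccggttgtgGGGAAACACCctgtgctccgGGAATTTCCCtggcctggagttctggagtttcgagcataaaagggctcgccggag
Cxcl2: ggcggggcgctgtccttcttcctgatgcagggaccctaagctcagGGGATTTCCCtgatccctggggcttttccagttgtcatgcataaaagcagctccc
Cxcl11: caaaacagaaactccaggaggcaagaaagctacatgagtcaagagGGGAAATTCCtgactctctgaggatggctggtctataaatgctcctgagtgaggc
On either strand, 7 of 13 chemokines with an entry held the motif within 250 bases before the start (53.8%), against 449 of 27457 genes (1.64%) and 173 of 9376 tested genes (1.85%). Cxcl2, another CXCR2 ligand, fell 7.11-fold in brain. Its 1.70-fold fall in spinal cord (adjusted p = 0.0166) was lost without array 2 of the proliferative or array 2 or 3 of the differentiated spinal cord cells (0.0527 to 0.0697). Cxcl11, a ligand of CXCR3, rose 4.65-fold in brain and 4.76-fold in spinal cord. Without array 1 of the proliferative spinal cord cells its spinal cord response of 2.25 became 1.49, and its difference of 0.03 became -0.73 and was called.

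Genes induced by ERK signalling, the kinase cascade below growth factor receptors, fell in both tissues. Of 20 targets and feedback inhibitors, 19 fell in brain, 18 in spinal cord and 17 in both, against 8.30% of all genes lowered in both, with medians of -1.84 and -1.96. The difference was called for 7 higher and 4 lower in spinal cord (7 lower without array 1 of the proliferative spinal cord cells, 2 lower after median centring). The phosphatases Dusp6 and Dusp5, which switch ERK off, fell 5.53-fold and 9.71-fold in brain and 3.08-fold and 4.71-fold in spinal cord. Spry2, a feedback inhibitor, fell less in brain (2.52-fold) than in spinal cord (6.53-fold; difference -1.37 ± 0.18). Plau, urokinase, fell 26.7-fold in brain and 6.61-fold in spinal cord. The dual phosphatase Dusp1 fell 2.63-fold in brain only, with a spinal cord change of -0.15 (interval -0.50 to 0.20). In its other tested probe set the brain fall was called and the difference was not.

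Immediate early genes, which growth factors induce within minutes to hours, fell in 14 of 21 cases in brain and in 11 in spinal cord, and the response was higher in spinal cord for 8 and lower for Fos, Nr4a1 and Atf3. Klf4, a pluripotency and quiescence factor, read 10.18, 10.15 and 10.75 and then 7.23, 6.82 and 7.05 in brain cells, and 9.46, 9.97 and 9.23 and then 9.91, 9.88 and 9.88 in spinal cord cells. It fell by 3.33 (log2) in brain (difference 3.67 ± 0.28). Its spinal cord change of 0.34 had no call with all arrays and was called at 0.55 without array 2 of the proliferative spinal cord cells. Fosl1, an AP-1 subunit, fell 12.1-fold in brain and 2.57-fold in spinal cord, and Egr1, a zinc finger factor, 4.33-fold and 1.69-fold. Fos, another AP-1 subunit, was opposite: it rose 1.49-fold in brain and fell 3.96-fold in spinal cord (difference -2.56 ± 0.16, adjusted p = 6.1e-08).

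Growth factor genes also responded unequally. Of 11 genes for epidermal growth factor receptors, ligands and regulators 5 had a lower and 3 a higher response in spinal cord. Tgfa, a ligand of the receptor, read 8.05, 8.60 and 8.53 and then 10.28, 10.86 and 10.74 in brain cells, and 11.15, 11.59 and 11.61 and then 9.48, 9.74 and 9.75 in spinal cord cells. It rose 4.69-fold in brain and fell 3.47-fold in spinal cord. Nrg1, neuregulin 1, fell 3.44-fold in spinal cord with a brain change of 0.10. Its 2 other tested probe sets were called down in spinal cord, and their difference was not called. Bmp4, a bone morphogenetic protein, was dim in proliferative brain cells, rose at least 21-fold in brain and 2.32-fold in spinal cord, and differed at least 9.07-fold. Among 20 genes of that pathway 5 had a higher and 4 a lower response in spinal cord, near the shares of all genes. Igfbp3, a carrier of insulin-like growth factors, fell 16.2-fold in brain and 1.95-fold in spinal cord. Igf2r, the receptor that clears insulin-like growth factor 2, rose 1.92-fold in spinal cord with a brain change of -0.10; its other tested probe set had the difference called but neither response.

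Notch and Wnt genes were divided. Of 17 Notch genes 8 had a lower response in spinal cord and 3 a higher one (1 higher without any of 7 arrays: 1 or 3 of the proliferative or 2 or 3 of the differentiated brain cells, or 3 of the proliferative or 1 or 2 of the differentiated spinal cord cells). Notch1, the receptor, rose 1.97-fold in brain and fell 2.52-fold in spinal cord (difference -2.31 ± 0.18). Jag1, a ligand, fell 4.89-fold in brain with a spinal cord change of 0.09 (interval -0.28 to 0.47), and the target Hes1 fell in both, 2.14-fold and 2.21-fold. Of 21 Wnt genes 7 had a higher and 5 a lower response in spinal cord (8 lower without array 1 of the proliferative spinal cord cells). Fzd6, a Frizzled receptor, fell 2.06-fold in brain and rose 5.36-fold in spinal cord, and Tcf7, a nuclear effector, fell 2.11-fold and rose 2.80-fold. Fzd8 and the ligand Wnt7a had the opposite pattern, rising 1.81-fold and 2.15-fold in brain and falling 1.99-fold and 3.33-fold in spinal cord. Fzd2 rose in both, 2.38-fold and 6.85-fold.

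Of 30 DNA replication genes 20 fell in brain and 3 in spinal cord, with medians of -0.79 and -0.15, and 11 had a higher and 0 a lower response in spinal cord. That count ranged from 5 without array 3 to 22 without array 1 of the proliferative spinal cord cells. It was 6 or 7 without any of 7 other arrays: array 1 or 2 of the proliferative or 1 or 3 of the differentiated brain cells, or array 2 of the proliferative or 2 or 3 of the differentiated spinal cord cells. Counts of 5 to 7 of 30 are no larger a share than that of all genes called higher (23.7%). The list's mean level on array 1 of the proliferative spinal cord cells was 10.28, against 9.24 and 9.34 on the other 2. Hells, a chromatin remodeller of replicating cells, fell 2.84-fold in brain with a spinal cord change of 0.08. Cdt1, a replication licensing factor, fell in both, 2.51-fold and 2.11-fold. Of 29 mitotic genes 8 rose in brain and 8 fell in spinal cord, near the shares of all genes (24.1% and 22.6%), and 13 had a lower and 0 a higher response in spinal cord (10 to 17 without any 1 array). Pbk, a mitotic kinase, fell 2.33-fold in spinal cord with a brain change of 0.10 (interval -0.24 to 0.43).

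Lists of housekeeping metabolism had small median differences, mostly with more members higher than lower in spinal cord, which depend on scaling. Of 22 cytosolic ribosomal protein genes, 14 fell in brain and 16 rose in spinal cord, and 21 had a higher response in spinal cord as deposited, 22 after median centring and 11 after quantile normalization; the median difference was 0.59, 0.82 and 0.23. Rpl11 fell 1.36-fold in brain and rose 1.33-fold in spinal cord (difference 0.85 ± 0.13, adjusted p = 1.5e-04). Of 28 oxidative phosphorylation genes 18 rose in spinal cord, and 14 had a higher response there and 0 a lower one (11 and 1 after quantile normalization). Atp5po, an ATP synthase subunit, rose 1.47-fold in spinal cord with a brain change of -0.13. Of 20 cholesterol synthesis genes 15 fell in brain, and 12 had a higher response in spinal cord and 0 a lower one (11 and 0 after quantile normalization). Ebp, a sterol isomerase, read 9.38, 9.73 and 9.84 and then 8.29, 8.20 and 8.08 in brain cells, and 9.18, 9.17 and 8.96 and then 10.25, 10.23 and 10.16 in spinal cord cells. It fell 2.75-fold in brain and rose 2.16-fold in spinal cord (difference 2.57 ± 0.19). Nsdhl, another enzyme of the pathway, fell 1.52-fold and rose 1.66-fold, with no spinal cord call in its other tested probe set. Fdps fell 2.32-fold in brain with a spinal cord change of 0.07. Of 21 glycolysis and hypoxia genes 10 had a higher response in spinal cord and 2 a lower one. Ldha, lactate dehydrogenase A, fell 1.91-fold in brain with a spinal cord change of 0.22, and Vegfa, the vascular growth factor, fell in both, 3.62-fold and 2.04-fold.

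**Figure D4:**
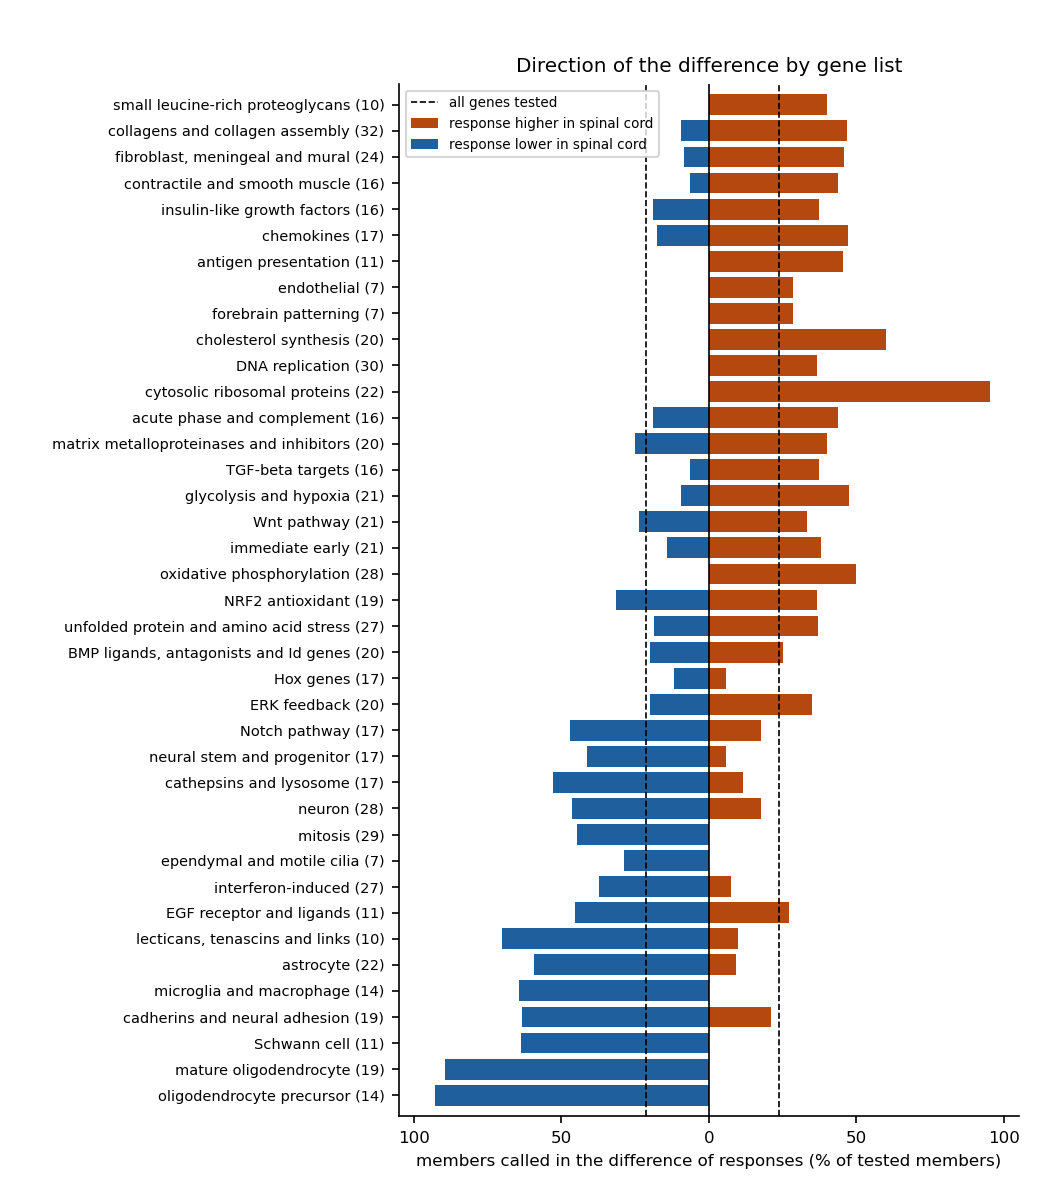
Share of tested members of each gene list (percent, x axis; number tested in brackets) called higher (right) or lower (left) in the spinal cord response than in the brain response; dashed lines mark all genes, 23.7% and 21.2%. Lists are in order of their median difference, with oligodendrocyte lists at the lower end and small leucine-rich proteoglycans at the upper. Of the 10 proteoglycans tested 9 had a dim group. Their median of 3.29 was 1.14 with dim groups set to the floor, under the fibroblast (1.39) and collagen (1.22) lists. Ribosomal proteins have the largest share called higher as deposited, 21 of 22, of which 11 are called after quantile normalization.

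**Figure D5:**
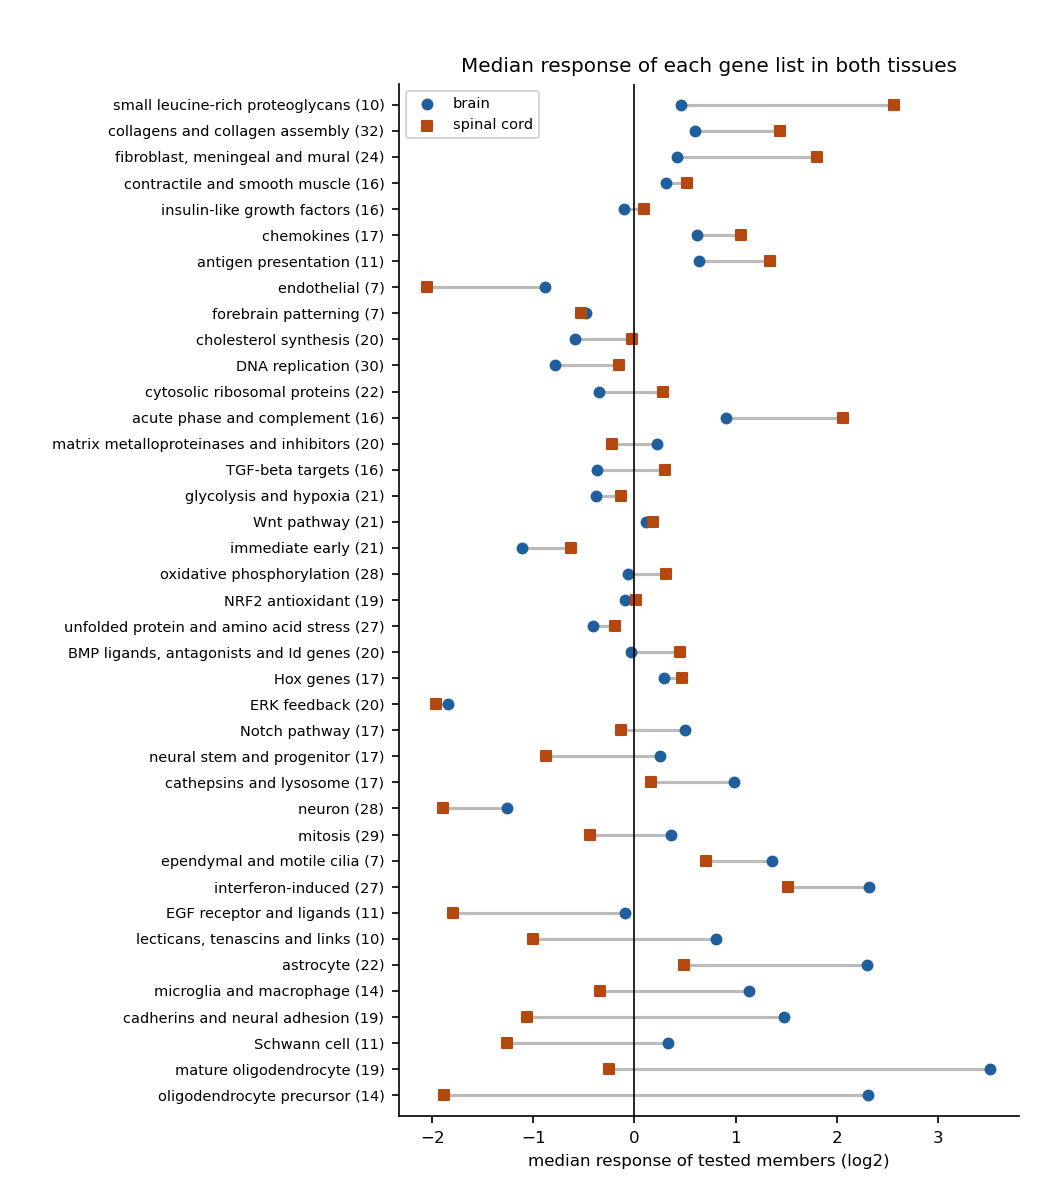
Median brain response (circles) and median spinal cord response (squares) of the tested members of each gene list, in log2 units. ERK feedback and interferon lists have both medians on the same side of 0, and the oligodendrocyte precursor list runs from -1.88 in spinal cord to 2.31 in brain.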

How the data were processed

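Expression was measured on Affymetrix rat genome arrays from total RNA, 12 arrays in 4 groups of 3. The deposited table holds log2 signals. MAS5 and affy are named in the submitters' processing notes, without versions or settings, and the linear signals average 500 on every array after trimming 2% at each end. From these values, 57 control probe sets of 31099 were left out, and a probe set entered if at least 3 arrays lay above their own 40th percentile (20834). Groups followed the sample titles. A model with a mean per group was fitted with limma 3.58.1 in R 4.3.3 (lmFit, eBayes with trend, 8 residual degrees of freedom), and p-values were adjusted by Benjamini-Hochberg over all probe sets tested, with a threshold of 0.05. The script was tested on simulated data.

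Probe sets were named through the platform annotation, updated to RefSeq names by Entrez identifier (20758 of the 20826 with 1 symbol; 436 had several and 9780 none). A gene is its probe set with the highest mean. Of 3316 genes with over 1 tested probe set, 25 had opposite calls in the difference. The number of arrays limits the precision. Members, lists and tests were chosen with earlier results of these data known.

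Named genes are the 6 with the largest difference of each opposite class, the 6 with the largest smaller response of each shared class with an interval within -1 to 1, the 3 with the largest difference for each tissue and direction among genes called in 1 tissue, and, from each list, its first 2 genes, up to 6 with the largest difference and up to 3 shared ones. Of the genes that several lists give, those least moved by leaving out 1 array were described. Named exceptions to a list's direction (such as Gja1, Chi3l1, Thy1 and Tgfb2) were singled out after their values were seen. Same-numbered arrays did not deviate together (r from -0.119 to 0.0479), so the replicate number is not used as a block. Alternatives were other scalings, filters, a pseudocount of 64 on the linear signal, a floor at the 40th percentile, array weights, a size threshold, a replicate block and leaving out each array.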

Additional observations from a re-analysis of the deposited data

Results flagged for a closer look

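The difference of responses is itself a test of whether the tissues responded unlike each other, so its counts and the named genes it called are given here; no cause was tested. By that test 3916 probe sets were higher and 4518 lower in the spinal cord response, 612 genes were up in brain and down in spinal cord, and 495 were down in brain and up in spinal cord. Among genes raised or lowered in brain, these opposite classes are near the share of all genes or under it. The values that follow are differences on the log2 scale, spinal cord response minus brain response, with dim groups at their measured values.

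Among genes of opposite response they were 9.41 for Foxp2, 7.42 for Cemip, 6.98 for Thbd, 5.46 for Fxyd5, 5.36 for Spint2 and 5.06 for Cxcl3. On the lower side they were -8.34 for Rlbp1, -6.91 for B3galt5, -6.88 for Pmel, -6.87 for Fbxo2, -6.42 for Scrg1 and -6.40 for B3gat2. Among genes called in brain only they were -6.10 for Tril, -5.11 for Mag and -4.38 for Zfp488, which rose in brain, and 3.86 for Emp1, 3.67 for Klf4 and 3.49 for Spon2, which fell there. Among genes called in spinal cord only they were 3.33 for Ajuba, 3.19 for Jcad and 3.16 for Adgra2, which rose, and -4.19 for Rnf180, -4.16 for Nxph1 and -4.11 for Car2, which fell.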

How the results depend on the processing

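The counts over all probe sets and genes kept within 1.5 times their value under the alternatives of scaling, filter, pseudocount, floor, variance trend, array weights, mean of the probe sets of a gene and left-out arrays. Requiring a log2 size of at least 1 lowered most of them by more. It left 1885 probe sets higher in spinal cord, while the 3126 lower ones kept within 1.5 times their value. There were 208 genes up in brain and down in spinal cord, 82 down in brain and up in spinal cord, 290 up in both and 211 down in both. A stricter call can only remove calls. Which direction held more genes turned, with 1158 higher and 1575 lower at this size, against 2654 and 2382 without it. With the replicate number as a block, which the arrays give no sign of pairing by, the replicate block counts were 3734 higher and 4338 lower probe sets, and 581, 450, 773 and 852 genes in the same order of classes. Small differences depend on scaling, since median centring moves the median difference of all genes to 0.29. Signals near the array's background carry little information, and 1438 of the genes tested had at least 1 dim group.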
